A study of Mus musculus with 38 samples.

Results

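The 7 genes of the mouse Fos and Jun families, *Fos*, *Fosb*, *Fosl1*, *Fosl2*, *Jun*, *Junb* and *Jund*, were followed in RNA from cells collected as dentate gyrus granule cells. They were taken by gene symbol from the 23420 genes of the count files, and all 7 were found. RNA was sequenced in 38 libraries from 19 mice. Each mouse gave 1 library of 10 dVenus+ cells and, from nearby, another of 10 cells without dVenus fluorescence (dVenus-). All mice were adult males that carried the Arc::dVenus transgene, in which the promoter of the activity-regulated gene *Arc* drives a destabilized fluorescent protein, on a C57BL/6J background. Of these mice, 12 were fear conditioned with tones and foot shocks (FC), 4 went through the same session without a shock (NS), and 3 stayed in the home cage (HC). Cells of FC and NS mice were collected the day after training. Each cell was drawn into a patch pipette from an acute brain slice, and a library holds the pooled contents of its cells, so that more cells expressing a gene and more RNA of it per cell cannot be told apart.

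Fos and Jun proteins are basic leucine zipper transcription factors that bind DNA as dimers, together called AP-1. Jun proteins pair with one another or with Fos proteins, whereas Fos proteins need a Jun partner. In neurons, *Fos*, *Fosb* and *Junb* belong to the immediate early genes, whose transcripts appear within minutes of strong synaptic activity and decay quickly. *Jun* is also switched on by stress through the JNK kinases and activates its own gene, *Jund* is expressed more steadily, and a shortened product of *Fosb*, ΔFosB, is long-lived as a protein. Calcium and MAP kinase signals reach the *Fos* gene through CREB and the serum response factor. The counts do not separate the isoforms of *Fosb*, since they were made per gene.

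The control regions of *Fos* and *Jun* are shown because *Fos* stood near the lower and *Jun* at the upper end of the measured levels. RefSeq (GRCm38.p6) gave promoters for 6 of the 7 genes, and the 250 bases before the RefSeq start of 2 of them follow, 5′ to 3′ on the strand of the gene. Capitals in *Fos* mark the core of the CREB site, TGACG, and capitals in *Jun* mark the AP-1-like sites TGACATCA and TTACCTCA, through which Jun protein acts on its own gene.
*Fos* promoter, chr12:85473640-85473889, plus strand: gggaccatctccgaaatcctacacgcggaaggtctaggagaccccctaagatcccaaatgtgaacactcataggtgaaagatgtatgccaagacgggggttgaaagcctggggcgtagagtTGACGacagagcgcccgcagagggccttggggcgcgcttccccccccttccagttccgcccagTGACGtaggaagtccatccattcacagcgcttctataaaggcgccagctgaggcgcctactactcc
*Jun* promoter, chr4:95052223-95052472, minus strand: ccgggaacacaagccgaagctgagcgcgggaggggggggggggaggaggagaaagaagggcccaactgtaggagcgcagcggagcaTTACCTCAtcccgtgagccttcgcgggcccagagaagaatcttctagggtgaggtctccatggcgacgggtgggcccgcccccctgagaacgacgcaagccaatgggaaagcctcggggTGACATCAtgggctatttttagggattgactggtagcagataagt
In *Fos* the core stood at 129 to 125 and at 66 to 62 bases before the start. In *Jun* the 2 AP-1-like sites stood at 164 to 157 and at 45 to 38 bases before it. Both strands were searched. TGACG also occurred once in *Fosb* and once in *Junb*, so 3 of the 6 promoters held it, and it was present in 17.8% of 32851 promoters of the same length. TGACATCA was present in 2.93% and TTACCTCA in 0.728% of these promoters, and among the 6 genes only in *Jun*. None of the 6 windows held the full CREB site TGACGTCA (1.55% of all promoters), the consensus AP-1 site TGACTCA (4.46%), or the CArG box of the serum response factor (1.47%). Bases further upstream were not searched, so these genes may hold such sites, the CArG box of *Fos* included, outside the windows. The full CREB site contains the core. The RefSeq start equals the start in the GENCODE annotation for *Fos* and *Jun* and lies within 30 bases of it for *Fosb* and *Junb*, but it lies 671 bases downstream of it for *Fosl2* and 1210 bases upstream for *Jund*, so that the windows of these 2 genes do not border the gene starts given further on. The TATA box letters TATAAA were present in *Fos* (12.4% of all promoters) and CCAAT in *Jun* and *Junb* (33.8%).

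Between 1352288 and 18394761 reads per library were counted on genes, and at least 1 read on between 7037 and 13286 genes. The dVenus+ library of mouse 3 (FC) was the shallowest, and that of mouse 5 (FC) had 7860 genes and a TMM factor of 0.337, the scaling by which its CPM values were divided. FC mice came from 3 experiments of 2, 4 and 6 animals, each with its own code in the sample identifiers, and every NS and HC mouse carried 1 further code. Training and experiment can therefore not be told apart between FC and the other mice, neither for levels nor for the dVenus+ to dVenus- differences. The descriptions of 10 of the 14 NS and HC libraries give another sample number than their titles and characteristics, 6 of them the other cell type and 0 another training group, and titles and characteristics were used. The sort was checked on *Arc*, which was higher in the dVenus+ library of every one of the 19 mice, with medians of 829.8 against 0.565 normalized CPM in FC, 307 against 0.0793 in NS and 285 against 0.202 in HC mice. The dVenus- libraries of FC mice 6, 7 and 14 were not free of *Arc*. They held it at 107.8, 48.1 and 171.9 normalized CPM, against 476.6, 815.6 and 1062.5 in their dVenus+ libraries. Markers of granule cells were present in both kinds of library (7 of 7 genes). Their summed level was lower in dVenus+ cells of all 19 mice, with medians of 476 against 1435 in FC, 397 against 1585 in NS and 609.98 against 1341 normalized CPM in HC mice. The summed level of 12 microglial markers was higher in dVenus+ cells of 10 of 12 FC, 4 of 4 NS and 3 of 3 HC mice. Markers of other glia were present too. For 5 oligodendrocyte markers the summed medians (dVenus+ against dVenus-) were 479 against 545 in FC, 1239 against 1919 in NS and 1163 against 2002 in HC. For 6 astrocyte markers they were 199 against 159 in FC, 1058 against 528 in NS and 866 against 485 in HC. The source of this RNA was not tested.

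*Jun* was the only one of the 7 genes with at least 10 counts in all 38 libraries. *Jund* reached 10 counts in 37, *Junb* in 31 and *Fosl2* in 30 libraries. *Fos* reached 10 counts in 12 libraries, *Fosb* in 10 and *Fosl1* in 1. At this depth 10 counts stand for between 0.544 and 7.39 CPM, and a count of 0 allows up to between 0.163 and 2.22 CPM (3 counts per library, counting error only). Between 2 and 6 of the 7 genes reached 10 counts in a library, with a median of 4.

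Divided by exon length, the median level over all libraries was 44.5 normalized CPM per kb for *Jun*, 15.2 for *Junb*, 8.29 for *Jund*, 2.12 for *Fosl2* and 0.101 for *Fos*, and 0 for *Fosb* and *Fosl1*. Neighbors in this order overlapped widely. *Jun* exceeded *Junb* in 31 of 38 libraries, *Junb* exceeded *Jund* in 24, *Jund* exceeded *Fosl2* in 28 and *Fosl2* exceeded *Fos* in 25. *Jun* made up a median of 68.3% of the counts of the 7 genes in a library, with a range from 7.07% to 98.4%. In the GRCm38 annotation *Jun* (chromosome 4, 95049034 to 95052222), *Junb* (chromosome 8, 84974484 to 84978718) and *Jund* (chromosome 8, 70698949 to 70700616) each consist of 1 exon. *Fos* (chromosome 12, 85473890 to 85477273), *Fosl1* (chromosome 19, 5447547 to 5455946) and *Fosl2* (chromosome 5, 32135801 to 32157842) have 4 exons, and the transcripts of *Fosb* (chromosome 7, 19302696 to 19310051) between 3 and 5.

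**Figure D1:**
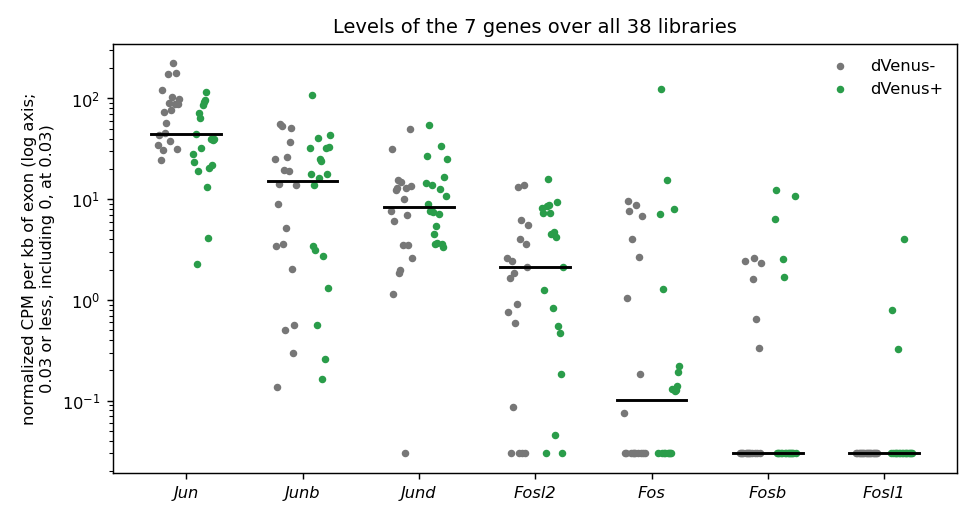
Levels of the 7 genes in normalized CPM per kb of exon (vertical log axis) for 19 dVenus- libraries (grey) and 19 dVenus+ libraries (green), with values of 0.03 or less drawn at 0.03 and the median over all 38 libraries as a black bar. The medians fall from 44.5 for *Jun* to 0 for *Fosb* and *Fosl1*, and the ranges of neighbors overlap.

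*Fos*, the prototype of the immediate early genes, was absent or near absent from most libraries and high in a few. No count was found in 17 of 38 libraries, and 9 others had between 1 and 9 counts. In FC mice *Fos* ran from 0 over a median of 0 to 263 normalized CPM in dVenus+ libraries and from 0 over 0.0795 to 20.1 in dVenus- libraries. Of all *Fos* counts of the series, 1704 of 3379 (50.4%) came from the dVenus+ library of mouse 4. The next highest, the dVenus+ library of mouse 10, held 392 counts (11.6%). Across FC mice *Fos* was higher in dVenus+ cells of 4, lower in 5 and at 0 in both libraries of 3 mice. Mouse 11 was higher by 1 count against 0, and mouse 1 was lower by 0 counts against 2. In the dVenus- libraries of mice 6, 7 and 14, which held *Arc* at 107.8, 48.1 and 171.9, *Fos* stood at 20.1, 16.0 and 18.3. In NS mice 18, 19, 20 and 21 it stood at 0.269, 0.298, 0.403 and 0.467 normalized CPM in dVenus+ cells, which is 1 or 2 counts each, and at 0, 14.4, 0 and 0 in dVenus- cells. In HC mice 15, 16 and 17 the levels were 0.274, 16.7 and 0.265 in dVenus+ and 0, 5.64 and 0.389 in dVenus- cells. Levels in dVenus+ and dVenus- libraries overlapped in each training group, and no fold change was fitted within a training group, since so few libraries held counts.

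*Fosb*, another immediate early gene, had no count in 27 of 38 libraries. It reached 10 counts in 4 of 12 dVenus+ libraries of FC mice (mice 1, 3, 10 and 11, between 6.46 and 46.2 normalized CPM). In dVenus- cells it did so in 2 of 12 libraries (mice 6 and 14, at 9.12 and 6.14), which held *Arc* at 107.8 and 171.9. Among NS mice it was high in the dVenus+ library of mouse 20 alone, at 41.2 normalized CPM, and in dVenus- cells it stood at 1.26 in mouse 19, 8.88 in mouse 21 and 0 in mice 18 and 20. In HC mice *Fosb* was at 0 in all 3 dVenus+ libraries, and in dVenus- cells of mice 15, 16 and 17 at 9.87, 0 and 2.43. Of the 12 libraries with at least 10 counts of *Fos* and the 10 with at least 10 of *Fosb*, 4 were the same, which is 33.3% of the first and 40% of the second. All 10 *Fosb* libraries also reached 10 counts of *Junb*.

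*Fosl1* encodes Fra-1, best known from proliferating and migrating cells. It was counted in 3 libraries, all dVenus+ libraries of FC mice, with 3 counts in mouse 3, 3 in mouse 9 and 25 in mouse 14. All 35 other libraries were at 0. *Fos*, *Fosb* and *Fosl1* missed the count minimum (10 counts in a number of libraries no smaller than the number of mice) in each of FC, NS and HC and were not tested there.

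**Figure D2:**
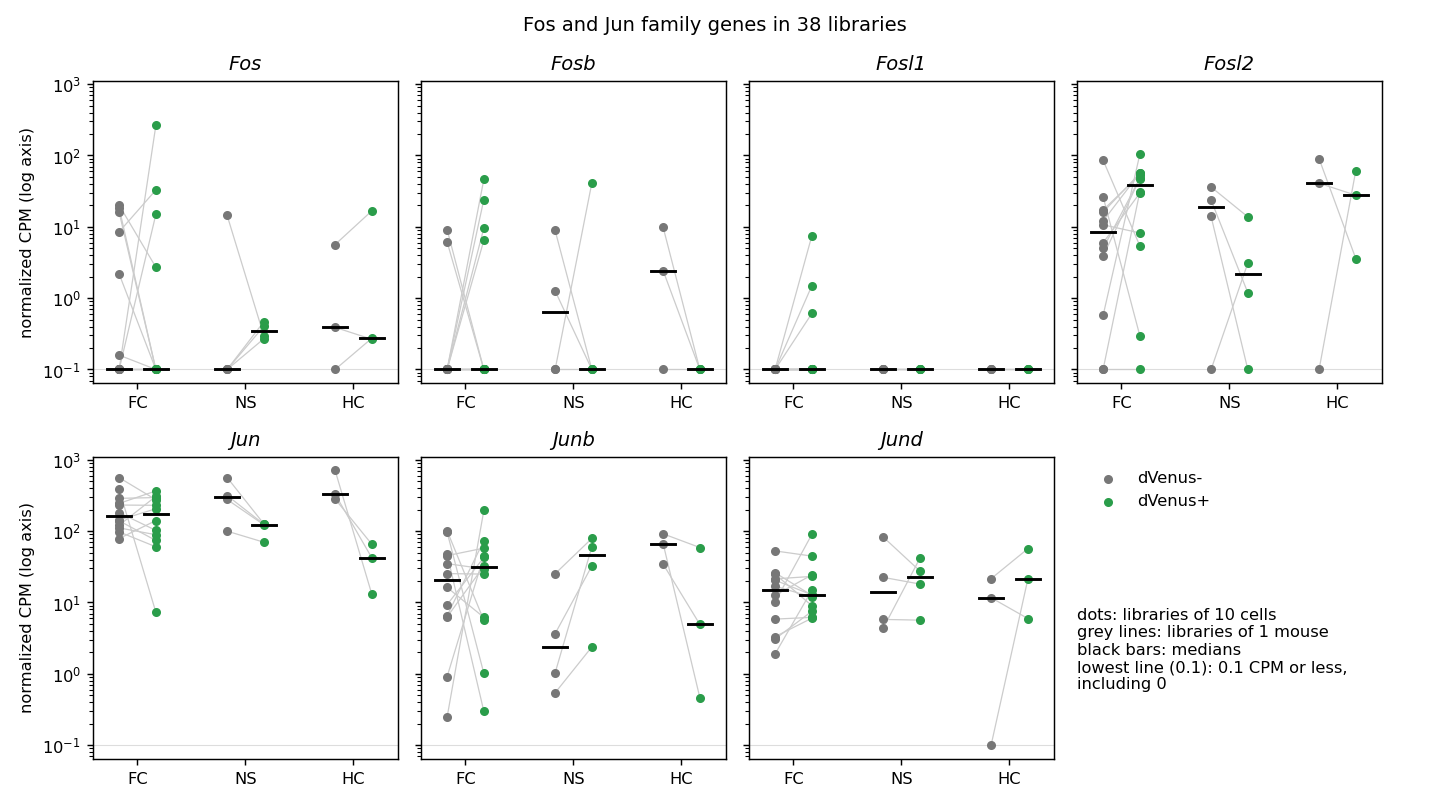
Normalized CPM (vertical log axis) of each of the 7 genes in the dVenus- (grey) and dVenus+ (green) libraries of FC, NS and HC mice, with a grey line joining the libraries of 1 mouse, black bars at the medians and values of 0.1 or less, including 0, drawn at 0.1. *Jun* and *Jund* are present in nearly all libraries, *Junb* runs from 0.248 to 195 and *Fosl2* from 0 to 103, and *Fos* and *Fosb* are high in a few libraries.

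The question put to these libraries was whether dVenus+ cells differ from their dVenus- neighbors, and whether this depends on training. Each group was tested on its own with edgeR's quasi-likelihood test, the mouse as block, on all genes that passed the count minimum. A gene was called at a Benjamini-Hochberg adjusted p-value under 0.05 and an absolute log2 fold change over 1. *Fosl2*, *Jun*, *Junb* and *Jund* were tested in each group. With edgeR 0 of these 4 were called in FC, where 1.41% of 9709 genes were called (0.577% higher and 0.834% lower), 0 of 4 in NS (0% of 8187) and 0 of 4 in HC (0.0264% of 7588). At an unadjusted p under 0.05 stood 0 of 4 in FC (12.8% of all genes), 0 of 4 in NS (4.69%) and 1 of 4, *Jun*, in HC (3.91%). DESeq2, which called 16.8% of the genes tested in FC, 8.13% in NS and 8.24% in HC, called 1 of the 4 in FC, *Fosl2*, and 0 of 4 in NS and in HC. The newer quasi-likelihood method of edgeR called 0 of 4 in each group, beside 4.35% of all genes in FC (1.5% higher and 2.84% lower). The median log2 fold change over all genes tested was -0.21 in FC, 0.20 in NS and 0.11 in HC, and over the 4 genes 0.44, -0.57 and -1.88.

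*Fosl2* encodes Fra-2, a Fos protein without a strong activation domain of its own. In FC mice it ran from 0 over a median of 39.1 to 103 normalized CPM in dVenus+ and from 0 over 8.32 to 86.0 in dVenus- libraries. It was higher in dVenus+ cells of 8 mice, lower in 3 and at 0 in both libraries of 1 mouse, and the groups overlapped. The log2 fold change was 2.08 (SE 1.36, 95% interval -0.78 to 4.94), which edgeR did not call (adjusted p = 0.586, 0.577% of all genes called higher). The newer quasi-likelihood method of edgeR gave 1.98 (unadjusted p = 0.0497, adjusted p = 0.281). With DESeq2 it was 2.24 (SE 0.84, adjusted p = 0.0456), inside the threshold, and 5.71% of the genes tested were called higher in that way. The mean difference of log2 CPM within mice was 2.42 in the experiment with 2, 2.11 in that with 4 and 0.92 in that with 6 FC mice, with dVenus+ higher in 2 of 2, 2 of 4 and 4 of 6 mice. In NS mice 18, 19, 20 and 21 *Fosl2* stood at 3.10, 1.19, 0 and 13.8 normalized CPM in dVenus+ cells against 0, 23.7, 14.0 and 36.1 in dVenus- cells. It was lower in dVenus+ cells of 3 of 4 mice, with a log2 fold change of -2.67 (SE 3.69, 95% interval -10.38 to 5.03). In HC mice 15, 16 and 17 the levels were 27.7, 61.4 and 3.58 against 40.8, 0 and 89.9, with a log2 fold change of -0.43 (SE 4.16, 95% interval -9.01 to 8.14). No direction was detectable with 4 or 3 mice.

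*Jun*, the main partner of the Fos proteins, was the most abundant of the 7. In FC mice it ran from 7.32 over a median of 173 to 366 normalized CPM in dVenus+ libraries and from 78.8 over 163 to 563 in dVenus- libraries, or 179.6 ± 116 against 216 ± 142 (SD, n = 12 each). It was higher in dVenus+ cells of 5 and lower in 7 mice, and the groups overlapped throughout. Its log2 fold change of -0.29 (SE 0.45, 95% interval -1.22 to 0.64) was not called by edgeR (adjusted p = 0.869). The lowest value came from the dVenus+ library of mouse 5, at 7.32 against 385 in its dVenus- library, and without this mouse the log2 fold change was -0.05 (SE 0.30). Within the experiments of 2, 4 and 6 FC mice the mean difference of log2 CPM was -0.62, -1.39 and 0.10, with dVenus+ higher in 0 of 2, 1 of 4 and 4 of 6 mice.

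In mice that had not been shocked *Jun* was lower in dVenus+ than in dVenus- cells of every animal. In NS mice 18, 19, 20 and 21 it stood at 126, 69.98, 123 and 125 normalized CPM in dVenus+ cells and at 565, 100.04, 278 and 316 in dVenus- cells. The lowest dVenus- value lay below the 3 highest dVenus+ values, so the groups overlapped. The fitted log2 fold change was -1.31 (SE 0.80, 95% interval -2.97 to 0.36) and was not called (edgeR, adjusted p = 1). In HC mice 15, 16 and 17 *Jun* stood at 42.2, 13.0 and 65.5 normalized CPM in dVenus+ cells and at 329, 709 and 282 in dVenus- cells. Here the groups did not overlap, as was the case, with dVenus+ lower, for 5.92% of the genes tested in HC. The log2 fold change was -3.67 (SE 1.30, 95% interval -6.34 to -0.99) with an unadjusted p of 0.00925 by edgeR, and it did not pass the adjustment over 7588 genes (adjusted p = 0.984). *Jun* lay at place 55 by p-value there, and 2.4% of the genes were lower with an unadjusted p under 0.05.

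With NS and HC mice in 1 fit, a comparison made after *Jun* had been seen to be lower in each of them, 0 of 4 members were called by edgeR (0.0266% of 7529 genes called, 0.0133% in each direction), and 1 of 4, *Jun*, stood at an unadjusted p under 0.05 (9.39% of all genes, 5.37% lower). *Jun* had a log2 fold change of -2.37 (SE 0.70, 95% interval -3.85 to -0.90, unadjusted p = 0.00371, adjusted p = 0.303). Leaving out each of the 7 mice gave between -2.56 and -1.78, with adjusted p by edgeR between 0.365 and 0.726. DESeq2 gave -2.28 (SE 0.67, adjusted p = 0.00980) and called 14.1% of the genes, so the call depended on the tool. A gene was lower in dVenus+ cells of all 7 of these mice in 1.04% of 14075 genes. These are the genes that passed the count minimum over all 38 libraries, not the 7529 of this fit. Some of them had no counts in NS and HC mice and could not be lower there, which makes the share smaller. Over all 19 mice *Jun* was lower in 14, as was the case in at least as many mice for 7.12% of the genes.

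**Figure D3:**
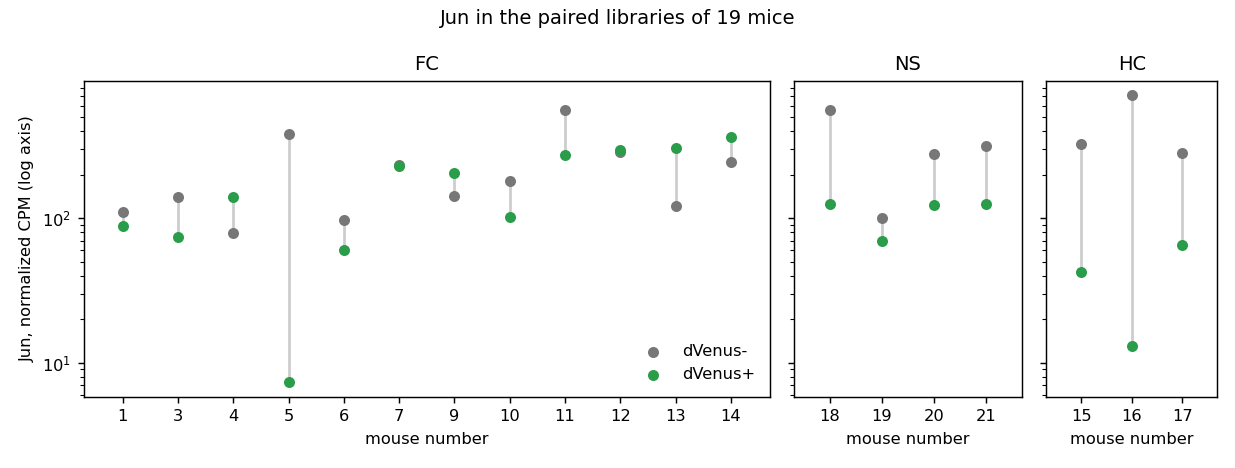
Normalized CPM of *Jun* (vertical log axis) in the dVenus- (grey) and dVenus+ (green) library of each mouse, joined by a line, for 12 FC, 4 NS and 3 HC mice. The green point lies below the grey one in 7 of 7 NS and HC mice and in 7 of 12 FC mice, with mouse 5 at 7.32 in dVenus+ cells.

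Microglial markers were higher in dVenus+ cells of the same 7 mice. Their summed level (12 markers) ran from 39.8 to 2480 normalized CPM in dVenus+ and from 1.38 to 1094 in dVenus- libraries of FC mice, from 79.4 to 1621 normalized CPM in dVenus+ and from 7.77 to 605 in dVenus- libraries of NS mice, and from 494 to 1600.3 against 58.6 to 505 in HC mice. Of these markers 9 of 9 tested in FC, 6 of 6 in NS and 9 of 9 in HC were higher in dVenus+ cells, with none called, and in dVenus- cells of HC mice *Aif1* was at 0. The summed level of granule cell markers was lower in dVenus+ cells of these 7 mice. In FC mice, where *Jun* was lower in 7 of 12, granule cell markers were lower in 12 of 12 and microglial markers higher in 10 of 12. The part of either in the difference of *Jun* was not tested.

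*Junb* encodes a Jun protein that is a weaker activator than *Jun* and can oppose it. In FC mice it ran from 0.298 over a median of 31.0 to 195 normalized CPM in dVenus+ and from 0.248 over 20.8 to 101 in dVenus- libraries, higher in dVenus+ cells of 6 mice and lower in 6. Its log2 fold change of 0.46 (SE 1.37, 95% interval -2.41 to 3.33) was not called by edgeR (adjusted p = 0.949). Without mouse 4 it was -0.0455 and without mouse 12 it was -0.0207.

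Outside the FC group *Junb* went in opposite directions. In NS mice 18, 19, 20 and 21 it stood at 32.5, 2.38, 59.9 and 79.0 normalized CPM in dVenus+ cells and at 3.66, 0.542, 1.03 and 25.3 in dVenus- cells, higher in dVenus+ cells of 4 of 4 mice (9.5% of the genes tested in NS were higher in every mouse). In HC mice 15, 16 and 17 it stood at 4.94, 0.465 and 59.0 in dVenus+ and at 34.5, 67.1 and 91.8 in dVenus- cells, lower in 3 of 3 mice (12.3% of the genes tested in HC were lower in every mouse). The levels of dVenus+ and dVenus- libraries overlapped in both groups. The log2 fold change was 3.06 in NS (SE 2.38, 95% interval -1.90 to 8.03) and -3.33 in HC (SE 2.97, 95% interval -9.46 to 2.80), neither of them called. The difference between the groups, tested in 1 fit of the NS and HC mice after it had been seen, was -6.34 on the log2 scale (SE 3.63, 95% interval -13.77 to 1.09, unadjusted p = 0.0916, adjusted p = 1 by edgeR). In that test edgeR called 0 of 6 members, with 0 of 6 at an unadjusted p under 0.05, and 0% of 10927 genes (2.05% at an unadjusted p under 0.05). DESeq2 put it at -6.36 (SE 1.86, adjusted p = 0.0211) and called 4.35% of the genes.

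*Jund*, the steadily expressed family member, showed no difference beyond its spread. In FC mice it ran from 6.02 over a median of 12.7 to 90.0 normalized CPM in dVenus+ and from 1.90 over 14.8 to 52.8 in dVenus- libraries, higher in dVenus+ cells of 7 mice and lower in 5. This gave a log2 fold change of 0.41 (SE 0.78, 95% interval -1.21 to 2.04, adjusted p = 0.905 by edgeR). In NS mice 18, 19, 20 and 21 it stood at 5.66, 27.7, 18.2 and 41.6 in dVenus+ cells against 5.79, 83.1, 22.5 and 4.32 in dVenus- cells, and in HC mice 15, 16 and 17 at 21.1, 56.7 and 5.96 against 0, 21.6 and 11.7. These values gave log2 fold changes of 0.16 (SE 2.36) and 1.85 (SE 3.86).

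**Figure D4:**
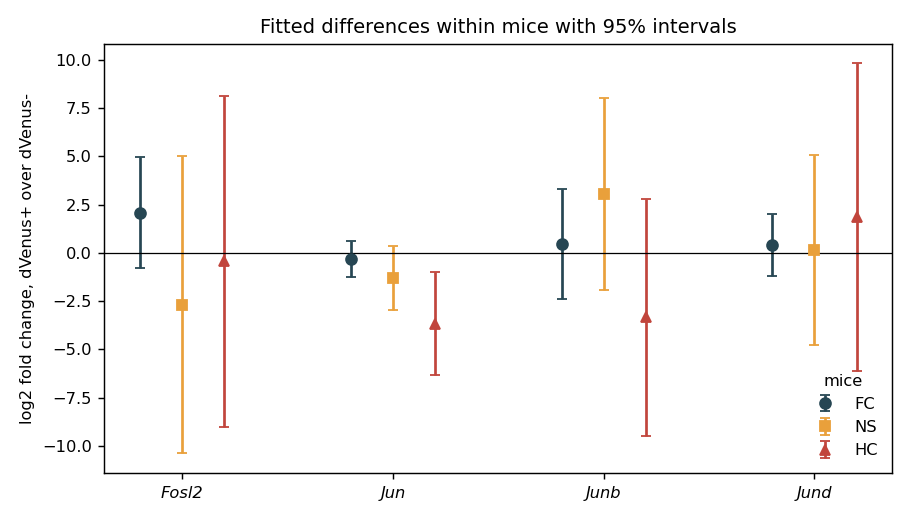
Log2 fold changes of dVenus+ over dVenus- cells (vertical axis) fitted by edgeR for the 4 genes tested, with 95% intervals, in FC (circles), NS (squares) and HC mice (triangles). The interval excludes 0 for *Jun* in HC mice alone, where the adjusted p is 0.984.

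Whether training altered these differences was tested as an interaction over all 38 libraries and 14075 genes, where training cannot be told apart from experiment for FC against NS or HC, with 6 of the 7 genes above the count minimum (10 counts in at least 3 libraries) and *Fosl1* below it. With edgeR 0 of 6 were called for FC against NS and 0 of 6 for FC against HC, as were 0% of all genes. At an unadjusted p under 0.05 stood 0 of 6 for FC against NS (5.42% of all genes) and 2 of 6, *Jun* and *Fosb*, for FC against HC (6.34%, 1.85% lower in HC). For *Jun* the dVenus+ to dVenus- difference in HC minus that in FC mice was -3.20 on the log2 scale (SE 1.11, 95% interval -5.47 to -0.93, unadjusted p = 0.00749, adjusted p = 0.752), beside a median of 0.87 over all genes. DESeq2 gave -3.53 (SE 0.90, adjusted p = 0.00195) and called 11.1% of the genes. Without mouse 16, the HC mouse with the widest gap, edgeR gave -2.22 (unadjusted p = 0.0644). In NS minus FC mice the same quantity was -0.98 for *Jun* (SE 0.90, 95% interval -2.84 to 0.87). With NS and HC mice as 1 term against FC, again set up after the values were seen, *Jun* differed by -1.83 (SE 0.81, unadjusted p = 0.0329, adjusted p = 0.640 by edgeR), with 0 of 6 members and 0% of genes called and 2 of 6, *Jun* and *Fosb*, at an unadjusted p under 0.05 (7.47% of all genes, 1.93% lower). *Fosb* rests on few libraries, with all 3 dVenus+ libraries of HC mice at 0, and its unadjusted p of 0.0400 by edgeR for FC against HC (adjusted p = 0.770) is given without a fold.

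NS and HC mice shared an identifier code, so their levels were also compared directly within each cell type. With edgeR 0 of 4 members were called in dVenus+ cells (0% of 8706 genes) and 0 of 5 in dVenus- cells (0% of 8547), with 0 and 0 at an unadjusted p under 0.05 (3.45% and 3.28% of all genes), and DESeq2 called 0 and 0. In dVenus+ cells the 4 NS values of *Jun* (69.98 to 126) lay above the 3 HC values (13.0 to 65.5), as was the case for 2.58% of the genes tested (4.14% without overlap in either direction), and the log2 fold change of NS over HC was 1.45 (SE 1.05, 95% interval -0.85 to 3.74, adjusted p = 1.00 by edgeR). In dVenus- cells, where the values overlapped, the log2 fold change was -0.53 (SE 0.70, 95% interval -2.02 to 0.95). *Junb* had a log2 fold change of 0.98 (SE 1.78) in dVenus+ and -3.09 (SE 2.13) in dVenus- cells.

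The members tested in FC, *Fosl2*, *Jun*, *Junb* and *Jund*, did not move together among FC mice. Over the 12 differences of log2 CPM within mice, Pearson's r between 2 of them lay between -0.53 (*Jun* and *Jund*) and 0.34 (*Junb* and *Jund*). By ranks (Spearman's rho) these pairs had -0.33 and 0.19. Between *Fosl2* and *Jun*, r was 0.09 and rho -0.12. *Fos*, *Fosb* and *Fosl1*, below the count minimum, were left out of these correlations, so whether they moved with other members was not examined. The genes whose differences were most like that of *Jun* were *Gdap1l1* (r = 0.92), *Degs1* (r = 0.92) and *Idh3b* (r = 0.91). For *Fosl2* these were *Rnmt* (0.91), *Nfyb* (0.86) and *Slc24a2* (0.86), for *Junb* *Ppp1r8* (0.89), *Hid1* (0.88) and *Pip5k1b* (0.88), and for *Jund* *Map9* (0.90) and *Kndc1* (0.90). The points are pairs of libraries that share a mouse and an experiment, and these are the highest correlations among the 9709 genes tested. Mouse 5 weighs heavily in every r of *Jun*, with a difference of -5.67 beside -1.03 to 1.34 in the other FC mice. The same mouse had the largest difference of *Jund* (3.11). No correlation was computed without it.

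Genes around AP-1 were examined by lists of their roles, which were chosen with earlier results of these data known. In FC 1.41% of all genes tested were called (0.577% higher) and 12.8% stood at an unadjusted p under 0.05. Of 14 other dimer partners of Fos and Jun (Atf, Batf, Jdp2 and Maf proteins) 4 were tested in FC and 0 called by edgeR (1 at an unadjusted p under 0.05). *Mafg*, a small Maf protein, had a log2 fold change of 2.94 (SE 1.14). It was higher in dVenus+ cells of 12 of 12 FC mice (as were 0.536% of the genes tested), 1 of 4 NS and 2 of 3 HC mice. *Atf7* had a log2 fold change of -2.46 (SE 1.20) in FC. *Atf3*, named here after its values were seen because it pairs with Jun, fell below the count minimum in FC. Its level was higher in dVenus+ cells of 11 of 12 FC mice, with medians of 64.5 against 0 normalized CPM and a highest dVenus- value of 1.76. In dVenus+ cells of HC mice it was higher in 3 of 3 and in those of NS mice in 3 of 4.

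Upstream of AP-1, 18 of 21 kinases and scaffolds of the ERK, JNK and RSK pathways were tested in FC, with 0 called by edgeR (3 at an unadjusted p under 0.05), 8 above and 10 below 0. The lowest p-values belonged to *Map3k5*, which encodes the stress kinase ASK1 (log2 fold change -6.05, SE 1.85, adjusted p = 0.116 by edgeR), and *Map3k4*, another kinase of this cascade, which was lower with an adjusted p of 0.276. Of the 13 factors that act on the *Fos* and *Jun* promoters all were tested and 0 called by edgeR (2 at an unadjusted p under 0.05), 3 above and 10 below 0 with a median of -0.62 beside -0.21 for all genes. *Crtc1*, a coactivator of CREB, had -0.99 (SE 0.36) and *Elk1*, a partner of the serum response factor, -1.68 (SE 0.69), and each was lower in dVenus+ cells of 11 of 12 FC mice (higher in 1). In NS and HC mice no gene of these 3 lists was called by edgeR.

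Among 10 factors that act in the turnover of *Fos* or *Jun* transcripts and proteins 7 were tested in FC and 1 was called higher, beside 0.577% of all genes. *Rfwd2*, which encodes the ubiquitin ligase COP1 that targets Jun, rose in dVenus+ cells. It ran from 21.9 over a median of 73.8 to 546 normalized CPM in dVenus+ and from 0 over 13.6 to 44.1 in dVenus- libraries, with dVenus+ higher in 12 of 12 mice. Its log2 fold change was 3.22 (SE 0.76, adjusted p = 0.0398 by edgeR). In NS and HC mice it was 0.64 (SE 1.69) and 2.27 (SE 3.41), higher in dVenus+ cells of 3 of 4 and 2 of 3 mice. *Zfp36l1*, which encodes a protein that binds AU-rich transcripts, had 1.64 (SE 1.38) in FC.

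Of 16 other early response genes 10 were tested in FC and 3 rose, beside 0.577% of all genes, with *Arc* among them as the gene behind the reporter. *Arc* had a log2 fold change of 9.98 (SE 1.41, adjusted p = 9.91e-04 by edgeR). *Bdnf*, a neurotrophin, rose by 2.50 (SE 0.33, adjusted p = 6.33e-04), from a median of 80.7 to 521 normalized CPM, and was higher in dVenus+ cells of 12 of 12 FC, 4 of 4 NS and 3 of 3 HC mice. *Dusp1*, a phosphatase that switches off MAP kinases, rose by 7.47 (SE 1.73, adjusted p = 0.0372), from a median of 0 to 19.5. *Dusp1* was higher in dVenus+ cells of 10 of 12 FC, 1 of 4 NS and 1 of 3 HC mice. Of 9 genes with known AP-1 sites 3 were tested in FC and 1 rose, beside the same 0.577%. This was *Penk*, the precursor of the enkephalins, which rose by 7.17 (SE 1.10, adjusted p = 0.00245), from a median of 3.6 to 437. *Penk* was higher in dVenus+ cells of 12 of 12 FC, 4 of 4 NS and 2 of 3 HC mice. *Hmox1*, which encodes heme oxygenase 1, had 5.88 (SE 2.06) without passing the adjustment. In NS and in HC none of these genes was called, *Arc* included (adjusted p = 0.0782 and 0.113 by edgeR), whereas *Arc* was called with NS and HC mice in 1 fit. Whether any list differed between training groups was not tested.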

How the data were processed

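The 38 libraries were made by the SmartSeq2 method and Illumina Nextera XT from 10 cells each and sequenced as single reads. Per the labels and the study's methods, the authors aligned reads to the mouse genome (mm10) with TopHat2 2.0.13 and counted uniquely mapped reads per gene with HTSeq 0.6.0 on NCBI transcripts. The deposited values are raw counts per gene without normalization. The strand setting of the counting is not given in the sources used here, so reads of overlapping antisense genes cannot be told apart from those of a gene. PCR copies were counted, since no molecular identifiers were used. The 5 entries that name no gene were left out of library sizes, with reads outside genes at between 16.4% and 59.7% and ambiguous reads at 1.58% or less per library.

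Samples were grouped by treatment, cell type and mouse as their titles and characteristics give them. No 2 libraries held identical counts. Levels are CPM normalized by TMM over all 38 libraries, and differences within mice are on log2 CPM with a prior count of 2. Within a group, genes that reached 10 counts in no fewer libraries than it has mice were tested with edgeR 4.0.16 (R 4.3.3, quasi-likelihood F test, mouse as block, a separate fit per group, adjusted by Benjamini-Hochberg over all genes tested). Genes were called at an adjusted p under 0.05 and an absolute log2 fold change over 1. Interactions with training came from 1 fit of 38 libraries (10 counts in at least 3) and were called on the adjusted p alone. The common biological coefficient of variation was 1.20 in FC and 1.42 in NS and in HC. DESeq2 1.42.0 (Wald test, same design), other scalings and filters, the FC experiments apart, a fit without the block and leaving out each mouse were alternatives. The newer quasi-likelihood method of edgeR, the fits of NS and HC mice together and the interaction of NS against HC were added after seeing the data. Both libraries of a pair come from the same mouse. The correlation of their deviations from the group means had a median of 0.0387 over 12 FC, -0.0168 over 4 NS and 0.0303 over 3 HC mice.

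The 7 genes and all gene lists were chosen with earlier results of these data known. Named were the 7 genes, *Arc*, each gene of a list called in FC, NS or HC and, where fewer than 2 were called, those with the lowest p in FC up to 2, and the 3 genes most like each tested member by Pearson's r over the FC mice, of which 1 is not reported here. Gene positions and exon lengths came from the GRCm38 annotation and promoters from RefSeq on GRCm38.p6. The fits were first tested on simulated counts with known fold changes.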

Additional observations from a re-analysis of the deposited data

Results flagged for a closer look

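Of 12 groups of 4 NS libraries that were checked for a single value far from the others, 5 held one, by the gap to the nearest value divided by the whole range (Dixon's criterion at the 95% level). Chance alone marks about 1 in 20 groups of normally distributed values. That rate does not hold where 3 of 4 libraries are at 0, since the gap over range is then 1 whatever the value, and the groups share libraries. *Fos* was at 14.4 normalized CPM in the dVenus- library of mouse 19, with the other 3 at 0 (gap over range 1). *Fosb* was at 41.2 in the dVenus+ library of mouse 20, with the other 3 at 0 (gap over range 1), and at 8.88 in the dVenus- library of mouse 21 (0.858). *Jun* was at 69.98 in the dVenus+ library of mouse 19, below the other 3 (0.937). *Junb* was at 25.3 in the dVenus- library of mouse 21, above the other 3 (0.874).

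The mean within-mouse difference of *Junb* (dVenus+ minus dVenus-, log2 CPM) was 6.35 higher in NS than in HC mice, with dVenus+ higher in 4 of 4 NS and lower in 3 of 3 HC mice. The interaction test of this difference did not pass the adjustment (edgeR, unadjusted p = 0.0916, adjusted p = 1), whereas DESeq2 gave an adjusted p of 0.0211.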

How the results depend on the processing

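The count of members called was 0 by edgeR in every comparison and remained 0 in 98 of 102 alternatives. DESeq2 raised it to 1 in FC (*Fosl2*), NS and HC together (*Jun*), the interaction of FC against HC (*Jun*) and that of NS against HC (*Junb*). Over all genes the FC count of 137 was 1635 with DESeq2, 422 with the newer quasi-likelihood method of edgeR, 3 in the experiment with 4 mice and 0 in that with 6, and between 56 and 118 when 1 mouse was left out. In NS 0 genes became 666 with DESeq2 and 4 with the newer method. In HC 2 became 625 and 0, and with NS and HC together 2 became 1065 and 57. Of 468 fitted fold changes of single members under an alternative, 26 changed sign, none of them called, and their causes were not tested. Under the other scalings (TMMwsp and the size factors of DESeq2) 0 members changed sign in the comparisons where each was run (TMMwsp in FC, NS and HC alone). TMMwsp moved the median of all genes by 0.12 in NS and 0.17 in HC, and the size factors moved it by -0.15 in the interaction of FC against NS, by -0.26 in that of FC against HC and by -0.13 in dVenus- cells of NS against HC. The share of higher values among genes at an unadjusted p under 0.05 in the interaction of FC against HC went from 70.7% to 59.7%.

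By experiment, the log2 fold change in FC was -0.50 for *Junb* in that with 4 mice, and 0.10 for *Jun* and -0.14 for *Jund* in that with 6. Without the mouse as replicate block it was -0.29 for *Jund* in NS, -0.17 for *Junb* in NS and HC together, -5.54 for *Fos* in the interaction of FC against NS (3.92 with the block) and -0.75 for *Fos* in that of FC against HC (2.52 with the block), and the block changed no call of a member. Without the block 126 genes were called in FC. The newer method gave *Fos* -1.997 in the interaction of FC against NS and 3.50 in that of NS against HC (-1.38 by the method used). These values of *Fos* rest on few libraries with counts.

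Leaving out 1 mouse at a time gave log2 fold changes from -0.0455 (without mouse 4) to 0.96 for *Junb* in FC, with -0.0207 without mouse 12. In NS *Jund* ran from -0.68 (without mouse 21) to 0.94, and in HC *Fosl2* ran from -2.74 to 4.10 (without mouse 17), with 2.22 without mouse 15. For NS and HC together *Junb* ran from -0.28 (without mouse 20) to 1.55 and *Jund* from -0.0234 (without mouse 15) to 1.24. In the interaction of FC against NS *Jund* ran from -1.03 to 0.47 (without mouse 19), with 0.03 without mouse 20. In that of FC against HC *Fosl2* ran from -4.65 to 2.27 (without mouse 17), with 0.19 without mouse 15, and *Jund* from -0.17 (without mouse 15) to 4.78. In that of NS against HC *Fosl2* ran from -0.0173 (without mouse 16) to 7.10 and *Jund* from -0.0113 (without mouse 15) to 4.95. Between NS and HC *Jund* ran from -0.75 to 0.80 (without mouse 16) in dVenus+ cells, with 0.08 without mouse 18, and from -0.00495 (without mouse 19) to 2.30 in dVenus- cells. *Jun* kept its sign in every such fit, with -4.60 to -2.68 in HC. The interactions were not refitted without single FC mice.

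With 10 cells per library and 3 or 4 mice in HC and NS, 95% intervals of single members spanned several log2 units. *Fos*, *Fosb* and *Fosl1* lay at or near the limit of counting in most libraries, and the limits of 3 counts cover counting error only, whereas the intervals of the fits include the spread between mice.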
